A study of Schizosaccharomyces pombe with 12 samples.

Results

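Same-strand neighbours are adjacent protein-coding genes that are transcribed in the same direction, one behind the other. They were taken from the deposited annotation of a modified genome of the fission yeast Schizosaccharomyces pombe. All 5149 protein-coding genes of chromosomes I, II and III were sorted by position, and a pair was a member when both genes lay on one strand. Of 5146 neighbouring pairs, 2336 were same-strand (45.4%, 95% Wilson interval 44.0 to 46.8), 1404 were convergent and 1406 were divergent. Convergent pairs face each other with their ends, and divergent pairs with their starts. In 49 of the same-strand pairs a member is a pseudogene in RefSeq or was not matched to it.

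The annotation belongs to a study of how RNA-DNA hybrids act at an inducible chromosome break, made with 12 ChIP-exo libraries in 6 groups of 2. ChIP-exo adds an exonuclease step to chromatin immunoprecipitation, which sharpens the edges of the recovered fragments. All strains carried a break system in which the endonuclease I-PpoI cuts a site placed on chromosome II. In cells lacking rnh1 and rnh201, the genes of ribonucleases that degrade the RNA of hybrids, the S9.6 antibody against hybrids was used with I-PpoI off or on. Ssb2, part of the RPA complex that coats single-stranded DNA, was precipitated by its Flag tag in wild-type cells, uncut or cut, and in cut cells that either lacked both ribonuclease genes or expressed rnh1 from the nmt1 promoter. Library signal and depth were not analysed here, so nothing below compares strains or induced with uninduced cells. What follows describes 1 annotation, which has no replicates. Its intervals cover counting error only and treat pairs as independent although neighbouring pairs share a gene.

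In a same-strand pair the end of the upstream gene faces the start of the downstream gene, so that a single gap has to hold both the termination region of the first and the promoter of the second. RNA polymerase II is released after the transcript has been cut at a polyadenylation signal, and polymerase that reads past it enters the next gene in the sense direction. A convergent gap holds only termination regions and a divergent gap only promoters. In fission yeast the TATA box lies upstream of the start of many genes, AATAAA is the main polyadenylation signal, and the HomolD box is a promoter element of ribosomal protein genes.

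The gaps beside the break site, beside the genes named by the strains and antibodies, and between ribosomal protein genes are shown because the results below turn on them. They were read from the RefSeq genome ASM294v3 between the bounds that RefSeq gives the genes, are written 5′ to 3′ along the direction of transcription, and have positions in ASM294v3, not in the modified genome. Capitals mark matches on either strand to TATAAA, to AATAAA or to CAGTCAC, the core of the HomolD box. A match is a description of the letters and not a mapped site. Within 150 bases before the RefSeq start of a gene, TATAAA was present on either strand for 29.2% of 4512 genes, AATAAA for 39.7% and CAGTCAC for 4.45%. TATAAA and AATAAA can overlap, as they do in the gap between ura5 and res1, where both lie in 1 run of capitals.
arg6 to ura5, II:1230916-1231042, plus strand: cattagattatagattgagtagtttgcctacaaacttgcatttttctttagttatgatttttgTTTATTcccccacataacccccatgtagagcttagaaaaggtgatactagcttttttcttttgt
ura5 to res1, II:1232359-1232585, plus strand: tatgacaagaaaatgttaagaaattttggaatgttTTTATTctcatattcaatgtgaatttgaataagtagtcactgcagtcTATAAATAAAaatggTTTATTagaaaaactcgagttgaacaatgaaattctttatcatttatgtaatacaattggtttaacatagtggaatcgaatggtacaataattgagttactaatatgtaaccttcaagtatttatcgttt
alp11 to rnh201, I:2254441-2254495, plus strand: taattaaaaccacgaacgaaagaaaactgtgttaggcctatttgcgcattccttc
rnh1 to hen1, II:2748328-2748488, minus strand: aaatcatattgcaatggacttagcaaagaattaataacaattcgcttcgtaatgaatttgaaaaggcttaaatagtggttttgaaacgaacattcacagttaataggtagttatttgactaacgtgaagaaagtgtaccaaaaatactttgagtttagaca
git3 to ssb2, III:1542093-1542332, minus strand: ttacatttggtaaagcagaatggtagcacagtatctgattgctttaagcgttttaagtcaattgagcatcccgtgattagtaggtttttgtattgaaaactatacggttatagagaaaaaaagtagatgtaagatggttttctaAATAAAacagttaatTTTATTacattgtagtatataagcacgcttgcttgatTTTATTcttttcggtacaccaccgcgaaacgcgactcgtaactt
hel2 to nmt1, III:1838165-1838414, plus strand: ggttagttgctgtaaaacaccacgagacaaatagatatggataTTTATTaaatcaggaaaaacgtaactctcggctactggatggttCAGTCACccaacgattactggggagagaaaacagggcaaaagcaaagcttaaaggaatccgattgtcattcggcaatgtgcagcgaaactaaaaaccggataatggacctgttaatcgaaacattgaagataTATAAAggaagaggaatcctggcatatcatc
rps403 to rpl2102, I:3400278-3400527, plus strand: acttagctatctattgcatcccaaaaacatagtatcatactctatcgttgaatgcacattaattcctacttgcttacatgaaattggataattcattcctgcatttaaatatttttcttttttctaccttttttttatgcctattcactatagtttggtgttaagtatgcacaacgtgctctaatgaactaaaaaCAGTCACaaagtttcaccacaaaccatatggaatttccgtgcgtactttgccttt
rps29 to rps27, II:517071-517320, plus strand: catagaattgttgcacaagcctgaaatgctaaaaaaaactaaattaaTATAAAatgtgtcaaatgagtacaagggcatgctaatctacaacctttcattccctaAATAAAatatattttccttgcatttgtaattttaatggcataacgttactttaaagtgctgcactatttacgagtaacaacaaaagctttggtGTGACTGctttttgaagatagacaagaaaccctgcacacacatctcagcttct
rps1402 to rps1601, II:1793687-1793936, plus strand: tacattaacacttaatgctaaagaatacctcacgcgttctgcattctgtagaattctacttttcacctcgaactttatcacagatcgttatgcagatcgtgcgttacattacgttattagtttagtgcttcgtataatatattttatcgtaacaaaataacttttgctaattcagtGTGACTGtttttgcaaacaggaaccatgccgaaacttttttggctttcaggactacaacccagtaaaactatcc
The first of these is the whole gap into which the break system was placed, in its unmodified state. It is 127 bases long, with 1 match to AATAAA, on the other strand, and none to TATAAA or CAGTCAC. The 227 bases between ura5 and res1 hold 3 matches to AATAAA and 1 to TATAAA. The gap between alp11 and rnh201, 55 bases, and that between rnh1 and hen1, 161 bases, hold no match to any of the 3 motifs. The 240 bases before ssb2 hold 3 matches to AATAAA. For nmt1 and the ribosomal protein genes the last 250 bases of a longer gap are shown. The stretch before nmt1, the thiamine-repressed gene whose promoter is used to control expression, holds 1 match to each motif. Each of the 3 ribosomal gaps holds 1 match to CAGTCAC.

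The spacing of same-strand genes lay between that of the other arrangements. The gap, counted as the bases from the end of the left gene to the start of the right gene and negative where they overlap, had a median of 254.5 bases (95% interval 233 to 270, quartiles 98 and 572). Convergent genes overlapped at the median, with a gap of -55 (interval -68 to -43), and divergent genes were farther apart, with 450 (399 to 508). The intervals of the 3 medians did not overlap. Plus-strand pairs (1147) had a median of 273 bases and minus-strand pairs (1189) one of 244.

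Genes that overlapped made up 324 of the 2336 same-strand pairs (13.9%, 12.5 to 15.3). Overlap was found in 868 convergent pairs (61.8%, 59.3 to 64.3) and in 305 divergent pairs (21.7%, 19.6 to 23.9). In 8 same-strand pairs 1 gene lay wholly inside the other, against 106 convergent and 96 divergent pairs. Without overlapping pairs the order was the same, with medians of 319 bases for 2012 same-strand, 173.5 for 536 convergent and 695 for 1101 divergent pairs. A further 1340 same-strand pairs (57.4%) were separated by 0 to 500 bases and 101 pairs (4.32%) by more than 2000, which was the case for 1.71% of convergent and 7.25% of divergent pairs. The left gene of 120 same-strand pairs ended inside an earlier gene, so that their gap was partly or wholly covered by coding annotation.

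**Figure D1:**
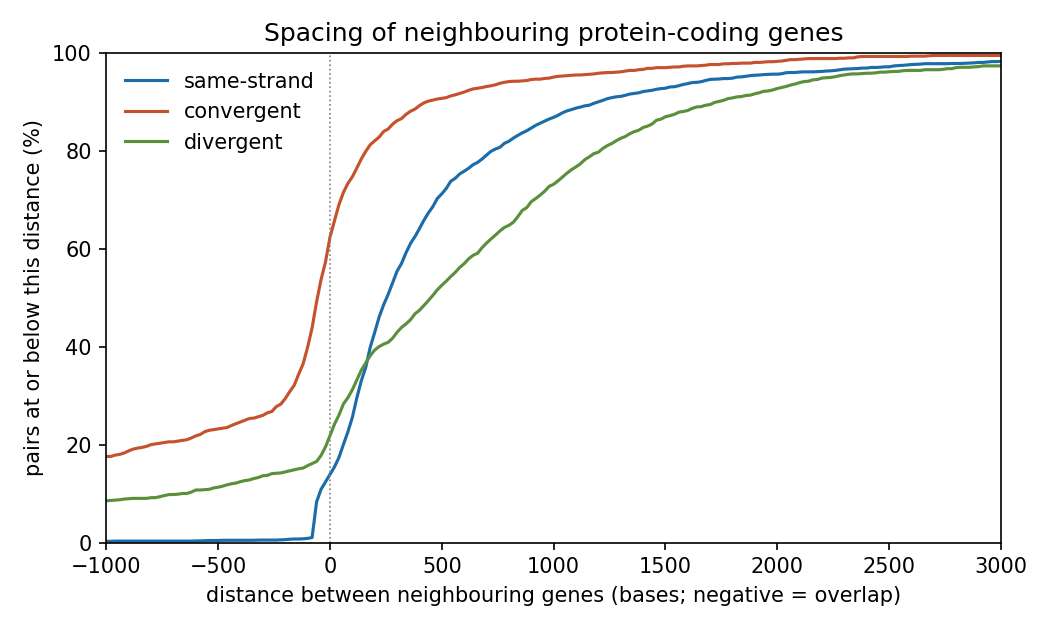
Share of neighbouring coding pairs (y axis, percent) with a gap at or below the value on the x axis (bases, negative for overlap), for same-strand, convergent and divergent pairs. The same-strand curve crosses 0 at 13.9% and has its median at 254.5, against -55 for convergent and 450 for divergent pairs.

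Same-strand overlaps were of a narrow range of sizes. Of the 324 overlaps, 206 (63.6%) were 51 to 70 bases long, a window chosen after the sizes were seen. Below it lay 92 and above it 26. The single commonest overlap was 68 bases, in 59 pairs, followed by 67 bases in 27, 64 in 18, 66 in 16 and 62 in 14. An overlap of 69 bases occurred in 1 pair, and 70, 71 and 72 bases in 0. The counts were thus highest at 68 bases and fell to 1 at the next base.

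The other arrangements had no such size. Of 868 convergent overlaps 59 (6.80%) were 51 to 70 bases long, and of 305 divergent overlaps 14 (4.59%). The median number of shared bases was 63 bases for same-strand, 175 for convergent and 516 for divergent pairs. An overlap of exactly 68 bases was found in 5 convergent pairs and in 0 divergent pairs. The size was shared by both strands and all chromosomes. It was found in 95 of 147 plus-strand overlaps (64.6%) and in 111 of 177 minus-strand overlaps (62.7%), in 90 of 141 on chromosome I, in 70 of 117 on II and in 46 of 66 on III.

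**Figure D2:**
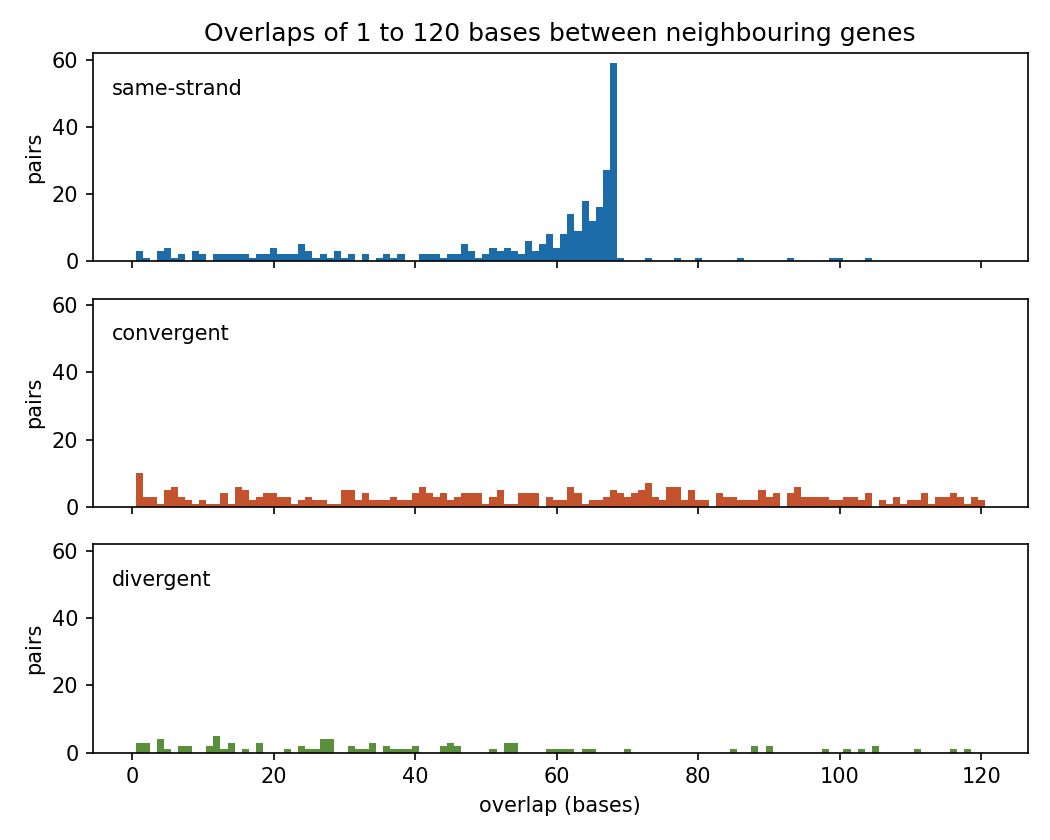
Number of overlapping pairs (y axis) by the length of the overlap (x axis, bases) for same-strand, convergent and divergent neighbours. Same-strand overlaps pile up at 51 to 70 bases with a peak of 59 pairs at 68 bases, and the other arrangements show no such peak.

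Most of these overlaps were not of that size in the RefSeq annotation. RefSeq lists both genes for 203 of the 206 pairs. In its bounds 101 of them overlapped (49.8%, 42.9 to 56.6), 15 of them by 51 to 70 bases, and the median gap was 0 (quartiles -35 and 74). Coding sequences were well apart. From the stop codon of the upstream gene to the start codon of the downstream gene the median was 555 bases (quartiles 359 and 821.5), the smallest 99, and 0 of the pairs had overlapping coding sequences. Downstream genes of these pairs were a median of 66 bases longer in the deposited annotation than in RefSeq (89.8% were longer), and upstream genes 41 bases longer (84.2%). In the other same-strand pairs these differences were 36 bases (74.5% longer) and 41 bases (73.6%). The sources used here do not say how the authors set those intervals, and what fixed the size was not tested.

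Several overlaps of this size involve genes of the study's subject. The gene rnh1, which encodes ribonuclease H1, overlapped its downstream neighbour hen1, a methyltransferase of small RNAs, by 65 bases, whereas RefSeq leaves 161 bases between them. The recombination gene rad52 overlapped its downstream neighbour izh3 by 67 bases (RefSeq gap -27). The paralogous transporter genes vht1 and SPAC1B3.15c overlapped by 68 bases, whereas RefSeq leaves 491 bases between them. Both genes of each pair lie on 1 strand, and no reads were assigned to these stretches here.

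Larger same-strand overlaps were few, and the largest 2 were of genes that lay wholly inside their neighbour. SPCC18.20 shared 1252 bases with dph7, of diphthamide synthesis, and SPAC959.11 shared 1158 with omh6, each pair with a common left edge. In RefSeq the gaps of these pairs were -106 and -883 bases, and their coding sequences lay 652 and 611 bases apart. Among the other contained genes, gna1 lay inside mpo1 with 550 shared bases, whereas RefSeq separates these genes by 129 bases. Among overlaps without containment the largest were 607 bases for SPCC188.14 and SPCC188.10c, 562 for mug116 and mug86 and 557 for cwf20 and mid1, a gene that places the division plane. RefSeq leaves 1178 bases between mug116 and mug86 and 333 between cwf20 and mid1. At the other end, pcf2, of chromatin assembly factor 1, and gid5 abutted with a gap of 0. SPBC28F2.05c and cwf7, a splicing factor gene, were 1 base apart, as were abh1 and pex14, of peroxisomal import. Small gaps were common, with 271 pairs separated by 0 to 99 bases.

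Distances between same-strand coding sequences take in the untranslated regions as well as the gap. In RefSeq the median distance from stop codon to start codon was 779 bases (quartiles 506 and 1233), and 5 of 2325 pairs had overlapping coding sequences. The distance between coding sequences was 411 bases in convergent pairs and 990 in divergent pairs. The 3′ untranslated region of the upstream gene had a median of 249 bases (quartiles 120 and 433) and the 5′ untranslated region of the downstream gene one of 68 (25 and 164.25). Facing regions in the other arrangements were 237 bases (3′, convergent) and 90 bases (5′, divergent). RefSeq, by its own neighbours, gave fewer same-strand overlaps, 154 among 2322 pairs, and a larger median gap of 319 bases, and 2256 pairs were neighbours in both annotations (96.6% of the deposited and 97.2% of the RefSeq pairs).

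The break site was placed in a same-strand gap. The upstream gene is arg6, of arginine biosynthesis, and the downstream gene ura5, a phosphoribosyltransferase gene of the pyrimidine pathway. Both lie on the plus strand of chromosome II. In the modified genome the gap between them ran from 1230916 to 1232881 and was 1966 bases long, of which the insert makes up 1842. Less the insert it was 124 bases, against 127 in RefSeq. The gap as modified was longer than nearly all others, since 102 same-strand pairs (4.37%) had a gap at least as long, itself included. In its unmodified length it was among the shorter ones, and 706 pairs (30.2%) had a gap of 124 bases or less, overlaps included.

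The features added with the insert kept the direction of their neighbours. Cutsite, 31 bases at 1231085 to 1231115, began 169 bases after the end of arg6. Hph, the hygromycin resistance marker, at 1231570 to 1232598, began 454 bases after Cutsite and ended 283 bases before ura5. With res1, a subunit gene of the cell cycle transcription factor MBF that starts 228 bases after ura5, this made 5 plus-strand features in a row. Without the insert, arg6, ura5 and res1 are a run of 3 genes from 1229152 to 1237429 in the modified coordinates. A polymerase reading past arg6 would meet the cut site and Hph in the sense direction. Whether any did was not measured in the files analysed.

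**Figure D3:**
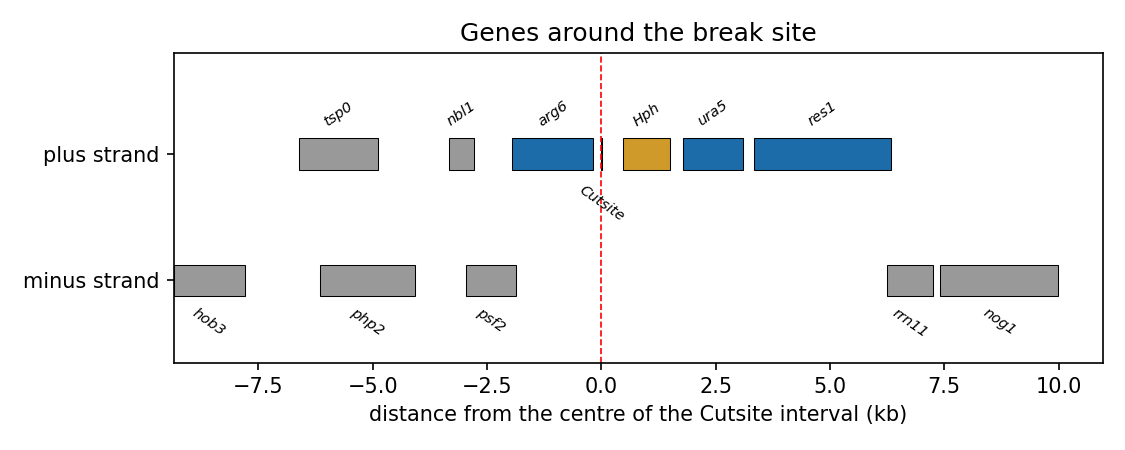
Genes around the break site on modified chromosome II, drawn to scale by their distance in kb from the centre of Cutsite (x axis), with plus-strand and minus-strand features on separate lines, the run of arg6, ura5 and res1 in blue, insert features in ochre, other genes in grey and the site as a dashed line. The site and Hph lie between arg6 and ura5, and arg6, Cutsite, Hph, ura5 and res1 are all on the plus strand.

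The other genes named by the strains and antibodies each had 1 same-strand neighbour. For rnh201, the catalytic subunit gene of ribonuclease H2, it was alp11, a tubulin folding cofactor gene upstream of it. The deposited intervals overlapped by 5 bases and those of RefSeq were 55 bases apart. For ssb2 it was git3, the glucose receptor gene, 223 bases upstream (240 in RefSeq). For nmt1 it was hel2, with a gap of 869 bases (950 in RefSeq), the longest of these. On their other side rnh201 converged on pcf11 with an overlap of 181 bases, ssb2 on sec1 with an overlap of 3596, and nmt1 on gut2 across 1067 bases. The start of rnh1 faced that of sfc3 across 840 bases. The promoters of rnh201, ssb2 and nmt1 thus lay behind the end of a gene transcribed towards them, and that of rnh1 did not.

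Genes that repair breaks or remove hybrids were placed among same-strand neighbours about as often as other genes. Of 42 genes found by name, 30 (71.4%, 56.4 to 82.8) had at least 1 same-strand neighbour, against 3611 of all 5149 genes (70.1%). The 36 pairs they formed included 6 overlaps (16.7%), against 13.9% of all same-strand pairs. Besides the pairs with rnh1, rnh201 and rad52, they included dbl8 with tri1 by 52 bases and nbs1 with sus1 by 22. The helicase gene dbl8 is related to sen1, and nbs1 encodes a subunit of the MRN complex that begins end resection. The median gap upstream of a repair gene was 248 bases (13 pairs) and downstream 236 (23 pairs).

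Some repair genes had same-strand neighbours on both sides. Of the 84 neighbours of the listed genes, 36 were same-strand (42.9%), against 45.4% of the neighbours of all genes. The recombination mediator gene rad52 lay 100 bases after cwf19 and overlapped izh3. The nuclease subunit gene mus81 lay 248 bases after mrpl4 and 188 before coq5. Gaps of 161 and 236 bases flanked hus1, of the checkpoint clamp that also holds rad9 and rad1, and 459 and 639 flanked rnh203, a further subunit of ribonuclease H2. The longest gap of the list was 2219 bases from mre11, the nuclease gene of the MRN complex, to fep1. It was followed by gaps of 1054 from swi5 to skp1 and 1030 from rpn1301 to crb2. The shortest positive gap was 31 bases, from lig4, the ligase gene of end joining, to pet127. The third MRN gene, rad50, lay 255 bases after sdh1, and exo1, of long-range resection, 343 bases after psm1. No pair joined 2 genes of this list.

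Gene groups outside break repair were compared by the same measures, with no test. Genes of cytosolic ribosomal proteins had one in 96 of 135 cases (71.1%), with median gaps of 333 bases upstream and 499 downstream of them, against 254.5 over all same-strand pairs. Of their 123 pairs 8 overlapped (6.50%). Genes of mitochondrial ribosomal proteins were closer to their neighbours, 184 bases upstream and 121 downstream, and 12 of their 55 pairs overlapped (21.8%). Transporter genes had the longest upstream gaps of the groups with over 40 genes, a median of 551 bases (quartiles 216 and 1533, 94 pairs), against 292 downstream of them (86 pairs). Genes whose product names RNA polymerase and a subunit, which take in initiation and associated factors, had 164 bases upstream and 326 downstream. Genes of proteasome subunits had a same-strand neighbour in 20 of 35 cases (57.1%), those of splicing factors in 13 of 18 (72.2%) and those of kinases in 143 of 210 (68.1%).

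The wtf family includes meiotic drivers, which kill spores lacking them, and genes that RefSeq lists as suppressors of drive. Some members, among them wtf3 and wtf17, have no product in RefSeq. The wtf genes had a same-strand neighbour in 21 of 25 cases (84.0%, 65.3 to 93.6), an interval that includes the share of all genes. Where 2 wtf genes were neighbours they lay on the same strand in 4 of 4 cases. These were wtf4 and wtf3 with a gap of 864 bases, wtf14 and wtf15 with 440, wtf18 and wtf17 with 137, and wtf19 and wtf20 with 285. Of 9 core histone genes 4 had a same-strand neighbour (44.4%, 18.9 to 73.3), an interval that also includes the share of all genes. Of 4 neighbouring pairs of histone genes 0 were same-strand. Neighbouring transporter genes were same-strand in 11 of 15 pairs and neighbouring kinase genes in 6 of 9, against 45.4% of all neighbouring pairs. Most of the 11 transporter pairs are also counted among the paralogues below. The groups are small, and no test of these shares was run.

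Ribosomal protein genes formed 4 same-strand pairs with each other, namely ubi2 with rps2602 (gap 511 bases), rps403 with rpl2102 (237), rps29 with rps27 (392) and rps1402 with rps1601 (920). The core of the HomolD box, capitalised in the last 3 gaps printed above, was present within 150 bases before the RefSeq start in 121 of 131 cytosolic ribosomal protein genes with an annotated 5′ untranslated region (92.4%, 86.5 to 95.8). Where such a gene was the downstream member of a same-strand pair among RefSeq's own neighbours, it was present in 59 of 62 (95.2%, 86.7 to 98.3). Over all 4512 genes the share was 4.45%. TATAAA was found before 13.7% of ribosomal protein genes and before 29.2% of all genes.

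Downstream genes of same-strand pairs had about the same share of TATA matches as divergent genes. The motif and base counts in this and the next paragraph use RefSeq's own neighbours and their RefSeq gaps, not the deposited pairs. Within 150 bases before the start TATAAA occurred on either strand in 30.2% of 2065 same-strand downstream genes (28.3 to 32.2) and in 28.3% of 2447 divergent genes (26.5 to 30.1). AATAAA on either strand was found in 43.1% and 36.8% of the same windows, and CAGTCAC in 4.60% and 4.33%. On the strand of the gene and within its last 50 bases, AATAAA occurred in 14.8% of same-strand upstream genes (13.4 to 16.4) and in 19.4% of convergent genes (17.9 to 21.0). In the first 50 bases after the gene the shares were 7.75% and 9.97%. These windows overlap the neighbouring gene where the gap is short.

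Where the gap was at least 200 bases, both motifs were most frequent within 40 bases before the end or the start, in a small share of genes. In windows of 10 bases counted from the end of the upstream gene, AATAAA started most often 30 to 21 bases before the end in same-strand genes, in 6.46% of 1408. In 449 convergent genes the share was 5.79% there and 6.01% at 40 to 31 bases before the end. Counted from the start of the downstream gene, TATAAA started most often 40 to 31 bases before it, in 4.76% of 1386 same-strand genes and 4.97% of 1792 divergent genes. Gaps were poor in G and C. The median GC content of same-strand gaps of at least 50 bases was 31.4% (quartiles 29.2 and 33.6, 2083 gaps), between those of convergent (30.0%) and divergent gaps (31.8%), against 39.6% in coding sequences. Pooled over all bases of these gaps it was 32.2% for same-strand, 31.9% for convergent and 32.1% for divergent gaps, so the order depends on the summary. Read along the direction of transcription the gaps were 34.7% T, 33.1% A, 16.3% C and 15.9% G.

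**Figure D4:**
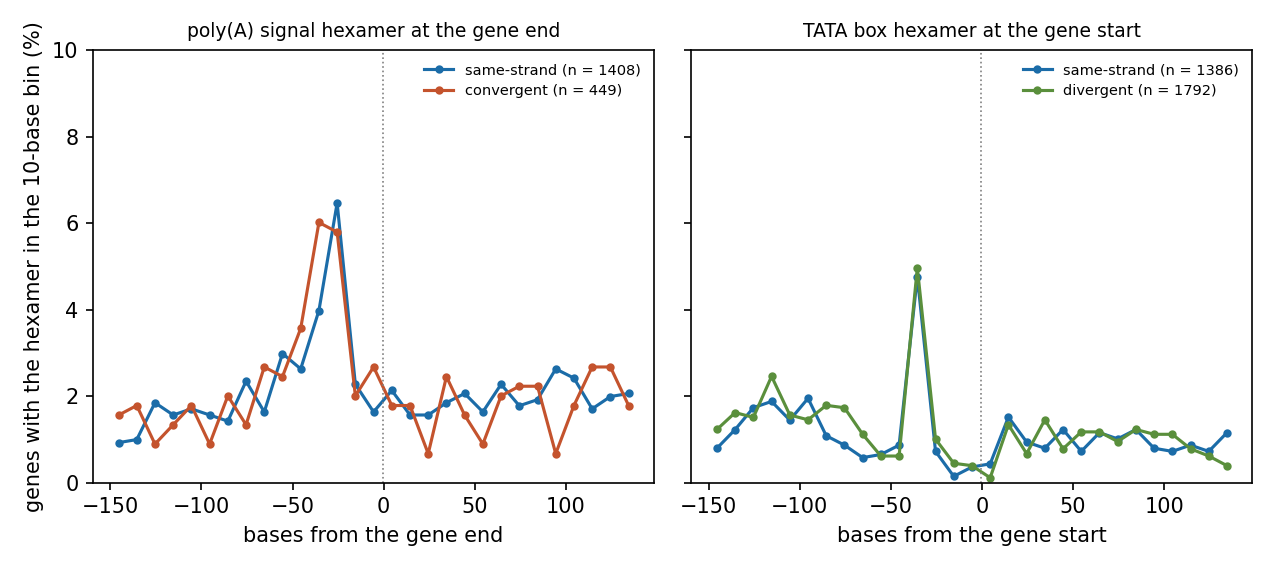
Share of genes (y axis, percent) in which AATAAA starts in each window of 10 bases around the gene end (left) and TATAAA around the gene start (right), by distance in bases (x axis), on the strand of the gene and for gaps of at least 200 bases. Pairs and gaps are those of RefSeq's own neighbours. Same-strand genes peak at 6.46% before the end and 4.76% before the start, and the highest values of the convergent and divergent genes are 6.01% and 4.97%.

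Same-strand pairs were chained into runs. The genes fell into 2813 stretches of one direction with a mean of 1.83 genes. Of all genes, 1538 (29.9%) had no same-strand neighbour and 3611 lay in 1275 runs of at least 2 genes. Runs of 2 numbered 696, of 3 310, of 4 151, of 5 63, of 6 28, of 7 19, of 8 4 and of 9 3, and 1 run had 10 genes. Runs of at least 5 genes were 118 with 685 genes (13.3%, 12.4 to 14.3), and spanned between 6636 and 36892 bases, with a median of 12989. A same-strand pair was followed by another in 45.5% of cases (43.5 to 47.5), an interval that includes the shares after a convergent pair (45.9%) and after a divergent pair (44.7%).

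**Figure D5:**
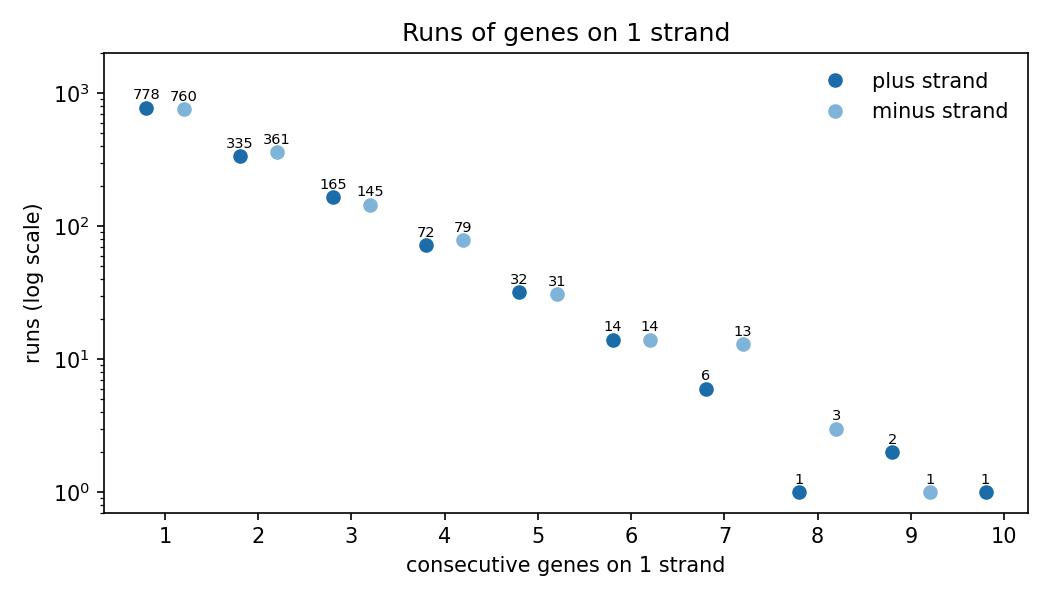
Number of runs (y axis, log scale) by the number of consecutive genes on 1 strand (x axis), with plus-strand and minus-strand runs as separate points and their counts beside them. Over both strands the counts fall from 1538 genes alone to 1 run of 10.

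The longest run held 10 plus-strand genes in 36892 bases of chromosome II (684099 to 720990). It began with dps1, of coenzyme Q side chain synthesis, and the glycoprotein gene SPBPJ4664.02, which at 12262 bases was its longest member. Next came mfm3, a precursor gene of the mating pheromone M-factor, cop1, of the coatomer, SPBPJ4664.05, gpt1, of glycoprotein folding in the endoplasmic reticulum, rpn3, of the proteasome, the ubiquitin-conjugating enzyme gene ubc4, cmt1, and mei3, the inducer of meiosis. The gaps ran from an overlap of 31 bases between cop1 and its downstream neighbour to 1942 bases after dps1. The upstream gap of mei3 was 592 bases. The run mixes genes of housekeeping with genes of mating and meiosis.

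Runs of 9 genes were found on chromosome I in both directions and on chromosome II. The plus-strand run at 679061 to 703040 of chromosome I had gaps of 59 to 943 bases and held rgs1, snu23, gcs1, res2, rok1, atp20, aim41, lon1 and alp41. Among these are a regulator of pheromone signalling (rgs1), a splicing factor (snu23), the first enzyme of glutathione synthesis (gcs1) and a subunit of MBF (res2). The minus-strand run at 3888557 to 3912648 held pex8, pup2, pos5, fas1, rpf2, dlc2, SPAC926.06c, dph4 and hsp90, with gaps of 107 to 1012 bases. It takes in a subunit of fatty acid synthase (fas1), a proteasome subunit (pup2) and the chaperone gene hsp90. The run on chromosome II, at 3150351 to 3174538 on the plus strand, held atg16, xdj1, rpl3602, SPBC609.01, ptn1, iqw1, caf5, pob3 and rpl29, with gaps of 110 to 1814 bases. It has an autophagy gene (atg16), 2 ribosomal protein genes (rpl3602 and rpl29) and a subunit gene of the histone chaperone FACT (pob3).

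The intervals of the median gap overlapped between short and long runs. The median gap was 255 bases in runs of 2 genes (229 to 283), 244 in runs of 3 or 4 (217 to 270) and 275 in runs of at least 5 (227 to 313). The shares that overlapped were 15.1%, 13.4% and 13.2%. By chromosome, same-strand pairs were 1060 of 2342 on I (45.3%), 836 of 1875 on II (44.6%) and 440 of 929 on III (47.4%).

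Most neighbouring paralogues had the same direction. By a protein alignment (blastp, at least 30% identity over at least 50% of the shorter protein), 15 of 2287 same-strand pairs were paralogous (0.656%, 0.398 to 1.08), against 0 of 1386 convergent pairs (Wilson upper bound 0.276%) and 2 of 1379 divergent pairs (0.145%, 0.0398 to 0.527). The same-strand interval overlaps that of the divergent pairs and not the bound of the convergent pairs. The divergent pairs were SPAC11D3.14c with SPAC11D3.15 and cat1 with put4. The same-strand paralogues had a median gap of 279 bases and a median identity of 64.4%, and 3 of the pairs overlapped in the deposited annotation. They formed 11 chains, 2 of them with 4 genes.

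Identical neighbours came from 2 loci. SPBPB10D8.07c, SPBPB10D8.06c, SPBPB10D8.05c and SPBPB10D8.04c encode proteins of 379 residues with 100% identity and lie 1324, 1501 and 1618 bases apart. The retrotransposons Tf2-8 and Tf2-7 lie 7 bases apart and their proteins are also identical. The DNA of these copies was not compared. The hexose transporter genes ght1 and ght8 (77.6% identity) were 1740 bases apart, SPCC613.01 and SPCC613.02 (75.5%) 279 bases, SPAC25B8.09 and SPAC25B8.10 (68.8%) 464 bases, and SPCC663.09c and SPCC663.08c (64.4%) 230 bases. The other chain of 4 genes runs from mfs3 through SPBC36.02c and SPBC36.01c to SPBC530.15c, with identities of 56.9%, 61.8% and 50.1%. Its middle pair overlapped by 65 bases. The other overlapping paralogues were dfg502 with dfg501, by 62 bases, and vht1, the vitamin H transporter gene, with SPAC1B3.15c. RefSeq leaves 544 bases between SPBC36.02c and SPBC36.01c and 491 between vht1 and SPAC1B3.15c.

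The longest same-strand gaps lay where the centromeres are known to be, 1 on each chromosome, with ppc1 and meu27 on both sides on chromosome III (78419 bases), rpb1, the gene of the largest subunit of RNA polymerase II, and yox1 on II (51407 bases), and per1 and emc5 on I (39181 bases). Fission yeast centromeres consist of a central core and repeats and carry clusters of tRNA genes. The 3 gaps held 21, 27 and 7 annotated tRNA genes. The next longest gap was 5951 bases, from pcs2 to hsr1, a stress transcription factor gene, and held 8 non-coding RNAs. It was followed by cct6 and sds23 with 5791 bases, ecl3 and SPBC8E4.03 with 5470, and SPAC750.07c and SPAC750.06c with 5388. The gap from cyc3 to ste11, the master transcription factor gene of sexual differentiation, was 4955 bases. SPCC794.16 and SPCC794.06 were 5207 bases apart in the deposited annotation and 2366 in RefSeq. Of 101 gaps over 2000 bases, 20 held a long terminal repeat of the reference (19.8%), against 69 of 1904 shorter ones (3.62%). A longer gap has more room for any feature, and no rate per base was computed.

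Non-coding features lay in 607 of 2011 same-strand gaps of at least 1 base (30.2%, 28.2 to 32.2), in 92 of 528 convergent gaps (17.4%) and in 399 of 1099 divergent gaps (36.3%). Fewer gaps held a feature in the direction of the pair. In 139 of the 607 gaps a feature was on the strand of both genes. In 178 a feature lay wholly inside the gap, and the others reached into a gene. By type, 724 of the 1540 RNAs named SPNCRNA touched a same-strand gap, 146 of them on the strand of the pair. Of 171 tRNA genes, 109 did so, 54 of them on the strand of the pair, all in 52 gaps. Of 47 rRNA genes 19 did, 9 of them on that strand, and of 53 small nucleolar RNAs 10 did, 2 of them on that strand. The gaps at the centromeres alone held 21, 27 and 7 tRNA genes. Counts by type are not given here for convergent and divergent gaps. The share of same-strand gaps with a non-coding feature rose with the length of the gap. It was 18.2% for gaps of 1 to 199 bases, 25% for 200 to 499, 38.1% for 500 to 999, 53.4% for 1000 to 1999 and 68.3% for gaps of at least 2000. Gaps that held a feature had a median of 544 bases and gaps without one 266.

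Towards the chromosome ends, same-strand genes were farther apart. Within 100 kb of an end, 104 of 207 neighbouring pairs were same-strand (50.2%, 43.5 to 57.0) with a median gap of 822 bases (564 to 1228). Elsewhere they were 2232 of 4939 (45.2%) with a median of 243.5 bases (225 to 262).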

How the data were processed

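The 12 ChIP-exo samples form 6 groups of 2 by their titles. Reads were aligned with Bowtie2 to ASM294v2, per the submitters' processing notes. The Bowtie2 version and later steps are not stated in the sources used here. No per-sample value was used, so library depth is unknown and no groups were compared. The deposited annotation, in BED form, lists the start and end of 7002 features with a score of 0 throughout, and the insert is a deposited line of bases. The sources used here do not state where the intervals came from.

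A gene was a nuclear feature named SPA, SPB or SPC without RNA in the name, with the longest of several transcripts kept (1 second transcript was dropped). Genes were sorted by start and paired with the next. Coordinates are 1-based, the BED start plus 1, in ASM294v2 with the insert. Names were matched to RefSeq locus tags for 5132 of 5149 genes. RefSeq bounds and all sequences are from ASM294v3 in its own coordinates, and deposited and RefSeq positions were never joined. RefSeq distances are over the same deposited pairs, except where RefSeq's own neighbours are named. Motif shares by arrangement, motif profiles, GC content and base composition are over RefSeq's own neighbours and their RefSeq gaps. Product words gave the gene groups; no product matched cell surface glycoprotein, and 3 matched tRNA ligase, of which 1 had a same-strand neighbour. The repair list had 47 names, older synonyms included, of which 42 were found. Named pairs were those at the insert and the genes in the labels, the 10 longest gaps, largest overlaps and shortest gaps, the longest runs, paralogues, and pairs with a listed gene, some of which are not reported here. Members and lists were chosen with earlier results of these data known.

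Shares have 95% Wilson intervals and medians 95% binomial order-statistic intervals. Proteins translated from RefSeq were aligned with blastp 2.17.0 (E at most 1e-05). Motifs were exact matches. Counting functions were tested on simulated data. Alternatives were RefSeq bounds, starts moved by 1 base, nested genes left out, ordering by midpoint, single chromosomes, and other thresholds for overlap, runs and identity. Python 3.11.15, numpy 2.4.6, scipy 1.17.1, matplotlib 3.10.9 and Biopython 1.88 were used.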

Additional observations from a re-analysis of the deposited data

How the results depend on the processing

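No paired analysis was possible because neither file holds per-sample values. Of 41 alternatives to 9 results on same-strand pairs, 26 stayed within the Wilson interval of the share, the interval of the median or 1.5 times the count, and 15 did not. The share of same-strand pairs (45.4%) was 46.8% with nested genes left out, 39.8% with all features as neighbours and 47.4% on chromosome III alone. The median gap (254.5 bases) was 319 in RefSeq gene bounds and 780.5 between RefSeq coding sequences, both over RefSeq's own pairs, and 195 without gaps that hold a non-coding feature. Overlapping pairs (13.9%) were, over RefSeq's own pairs, 6.63% by gene bounds and 0.0861% by coding sequences, and in the deposited list 0.856% at 100 bases or more. Gaps with a non-coding feature (30.2%) were 6.91% for features on the strand of the pair, 8.85% for features wholly inside and 75.6% with RefSeq's non-coding genes, of which there are 7461 against 1818 in the deposited list. Genes in runs of at least 5 (13.3%) were 25% for at least 4 and 7.19% for at least 6, as the longer or shorter minimum gives. The 206 overlaps of 51 to 70 bases were 17 over RefSeq's own pairs, a setting added after seeing the data; the cause was not tested. Moving starts by 1 base left 202 such overlaps and a median gap of 255.5. The longest run was 10 or 11 genes, and paralogous pairs (15) were 13 to 16. Small gene groups, paralogues and the break locus rest on few pairs, which limits their precision, and intervals leave out errors of the annotation itself.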
